A study of Mus musculus with 37 samples.

Results

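Vitamin A is turned into retinoic acid, a small lipid signal that patterns the early heart, and 10 genes that make, remove, bind, sense or answer to it were followed in mouse embryonic hearts. They are Rdh10 and Aldh1a2 (synthesis), Dhrs3 (return of retinal to retinol), Cyp26a1 and Cyp26b1 (degradation), Crabp2 (binding), Rara, Rarb and Rarg (receptors) and Rarres1 (a responder), found by symbol among the 25239 genes of the count table. All 10 passed the filter on low counts, as did 15046 genes in all. Measured values entered the choice. Rarres1 is taken to have been chosen by its measured level, being higher in Nipbl +/- than in wild-type hearts in an earlier reading of the same counts, and the other 9 for their place in the pathway. Values of all members in that contrast are therefore given as a description and support nothing.

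Rarres1 was the only member that passed the adjusted threshold of 0.05 in double heterozygous against Isl1 +/- hearts. As a description, it averaged 1.54 CPM (counts scaled to a common library total) in wild-type, 1.62 in Isl1 +/-, 3.80 in Nipbl +/- and 3.89 in double heterozygous hearts. In double heterozygous against Isl1 +/- hearts it was 2.15-fold higher (95% interval 1.68 to 2.75). These hearts share no library with the Nipbl +/- against wild-type contrast. Both values come from 1 fit, however, with shared set terms and spread, and earlier results were known when the genes were chosen. None of the other 9 members passed the adjusted threshold of 0.05 in any of the 8 comparisons in the edgeR fit of genotype and set number to all libraries. Aldh1a2, the enzyme that makes retinoic acid in the embryonic heart, had 1.36-fold higher fitted levels with 1 working Isl1 allele. It missed the threshold in that fit, though not with DESeq2. The highest level of 6 members lay in 1 library labelled Nipbl +/-, as did that of 30.0% of all genes tested. Without that library Aldh1a2 passed in the edgeR fit too. Cyp26b1 then passed in the averaged Nipbl effect, which includes the Nipbl +/- against wild-type contrast.

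As background, retinol is oxidised to retinal by RDH10 and retinal is oxidised to retinoic acid by ALDH1A2, while DHRS3 returns retinal to retinol and CYP26 enzymes break retinoic acid down. Retinoic acid binds receptors that sit on DNA with RXR partners, mostly at direct repeats of a short half-site, and several of these genes, Rarb, Cyp26a1 and Dhrs3 among them, are themselves known targets of the receptors. In the embryo, retinoic acid made near the inflow end of the heart tube limits the cardiac progenitor field and helps to set up the atria and sinus venosus, and the epicardium later expresses Aldh1a2.

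The hearts were dissected at stage E10.5 from 4 genotypes: wild-type (10 libraries), Isl1 +/- (9), Nipbl +/- (9) and both together, here called double heterozygous (9). Nipbl encodes the factor that loads cohesin onto chromatin, and Isl1 a transcription factor of cardiac progenitors. Fathers carried Stra8-iCre, active in the male germ line, with 1 floxed Nipbl allele, and passed on either the floxed allele, called wild-type by the submitters, or the recombined null allele named FIN. Mothers carried Cre inserted in 1 Isl1 allele, which leaves them haploinsufficient for Isl1, so that embryos of both Isl1 +/- genotypes carry Cre in Isl1-expressing cells and embryos of the other genotypes do not. Whether Cre recombined a floxed Nipbl allele in Isl1 +/- embryos is not stated in the labels. Each library has a set number after "IVF" in its label, of which the meaning is not spelled out. Set 1 held 3 wild-type and 3 Isl1 +/- libraries, sets 2, 5 and 6 held all 4 genotypes, and set 7 held 1 double heterozygous library. That library, replicate 2, is fitted exactly by its own set term, so the fitted double heterozygous values rest on 8 libraries.

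Of the 14 promoters that RefSeq lists for 8 of the members (GRCm38.p6, from 250 bases before to 50 after a start), 2 held a direct repeat of the half-sites that retinoic acid receptors are known to favour, separated by 5 bases. The half-sites searched, on both strands and in any pairing, were AGTTCA with its variant GGTTCA, as well as AGGTCA with its variant GGGTCA. The same search found a match in 32 of 32851 promoters (0.0974%). The promoters with a match belong to 1 start of Rarb and to Cyp26a1. They are shown because both genes had their highest level in the same library. That of Rarres1, the member called in double heterozygous against Isl1 +/- hearts, is shown too. Capitals mark the half-sites, which end 36 bases before the start in Rarb and 15 bases before it in Cyp26a1, where they lie on the other strand and read TGAACT as printed.
Rarb, chr14:16575427-16575726, minus strand: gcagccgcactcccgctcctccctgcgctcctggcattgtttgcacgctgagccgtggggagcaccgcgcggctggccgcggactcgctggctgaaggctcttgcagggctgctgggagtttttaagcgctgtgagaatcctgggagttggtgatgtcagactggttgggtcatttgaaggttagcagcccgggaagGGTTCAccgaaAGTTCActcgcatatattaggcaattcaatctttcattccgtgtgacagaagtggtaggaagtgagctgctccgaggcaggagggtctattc
Cyp26a1, chr19:37697558-37697857, plus strand: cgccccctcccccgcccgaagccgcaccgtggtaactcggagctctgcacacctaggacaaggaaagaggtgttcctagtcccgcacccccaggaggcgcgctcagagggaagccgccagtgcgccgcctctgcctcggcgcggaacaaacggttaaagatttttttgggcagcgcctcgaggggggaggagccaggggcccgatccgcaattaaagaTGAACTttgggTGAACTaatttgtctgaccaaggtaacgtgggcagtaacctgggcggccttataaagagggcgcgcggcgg
Rarres1, chr3:67515474-67515773, minus strand: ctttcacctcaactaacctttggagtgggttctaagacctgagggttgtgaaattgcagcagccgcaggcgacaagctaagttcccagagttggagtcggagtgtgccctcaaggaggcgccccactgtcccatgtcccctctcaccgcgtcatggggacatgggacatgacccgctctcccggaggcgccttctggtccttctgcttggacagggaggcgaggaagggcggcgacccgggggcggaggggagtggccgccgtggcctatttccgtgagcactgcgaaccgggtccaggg
No such repeat lay in the Rarres1 window. With spacers of 2 and 1 bases the repeat was found in 88 (0.268%) and 73 (0.222%) of all promoters and in none of the 14. A match describes the letters of the window and is not a measured binding site.

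The libraries held 23.4 to 51.0 M counts, with a median of 36.2 M. Nipbl itself was at 47.6 to 78.8 CPM in wild-type, 52.0 to 72.9 in Isl1 +/-, 28.2 to 51.5 in double heterozygous and 27.1 to 44.9 in 8 of the 9 Nipbl +/- libraries. The remaining one, labelled Nipbl +/- replicate 2 and in set 5, had 72.4 CPM of Nipbl, contrary to its label. That library also stood apart on the first principal component of all genes, so fitted changes in the comparisons that hold it are given with and without it. Isl1 mRNA did not settle the Isl1 labels, with 7.37 ± 2.24 CPM (SD, n = 10) in wild-type and 6.28 ± 1.76 (SD, n = 9) in Isl1 +/- hearts. It was 13.0 ± 2.82 in Nipbl +/- and 9.50 ± 3.51 in double heterozygous hearts (SD, n = 9 each). The averaged Isl1 effect on it was −0.33 (SE 0.13, edgeR adjusted p 0.321), short of the threshold. The Isl1 genotype is taken from the labels. Levels differed between sets, past the adjusted threshold, in 38.2% of genes, and set number was a term in every fit. Nothing in the labels says whether libraries of a group came from different litters, so p-values measure the spread between these libraries.

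Per kilobase of exon, the wild-type hearts held most mRNA from Aldh1a2, at 10.6 ± 4.20 CPM per kilobase (SD, n = 10), and from Rara, at 10.2 ± 1.10. Crabp2 followed at 4.82 ± 2.06, Rarb at 3.22 ± 0.325, Rarg at 2.37 ± 0.477 and Cyp26b1 at 1.66 ± 0.328 on the same scale. Dhrs3 (1.18 ± 0.384), Rarres1 (1.16 ± 0.288) and Rdh10 (1.01 ± 0.183) lay close together, and Cyp26a1 was lowest at 0.167 ± 0.113 CPM per kilobase. In this order, Rara lay above Crabp2, Rarb above Rarg and Rdh10 above Cyp26a1 by more than their SDs, while the SDs of the other neighbours overlapped. The level of Rarb is uncertain because its gene overlaps Top2b on the other strand and no strand setting is stated for the counting; Aldh1a2 overlaps a pseudogene on the other strand and Rara a small nuclear RNA gene.

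**Figure D1:**
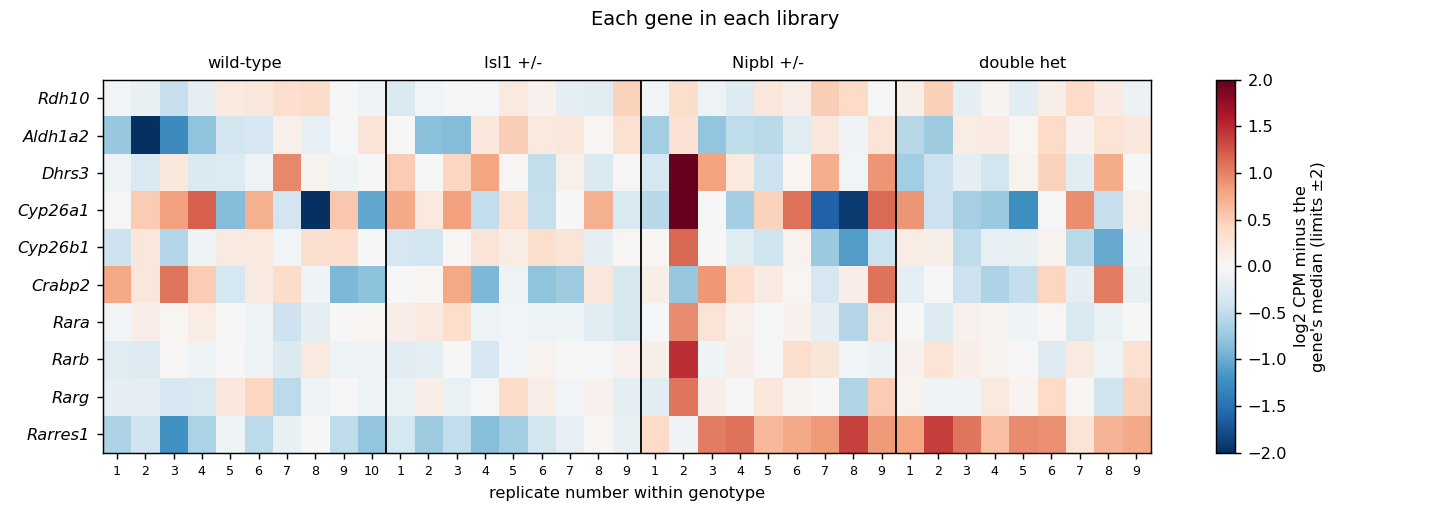
Each of the 10 genes (rows) in each of the 37 libraries (columns, by genotype and replicate number), as log2 CPM minus the gene's median over all libraries, with colours limited to ±2. The Rarres1 row turns red from the Nipbl +/- block on, apart from Nipbl +/- replicate 2, which ranked 20 of 37 and lies below the median. The column of Nipbl +/- replicate 2 holds the highest value of all libraries for 6 of the 10 genes. This column lies above the median for Aldh1a2 and Rdh10 too.

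Rdh10 (chromosome 1, 16105774 to 16133734, plus strand, GRCm38) encodes the enzyme of the first oxidation step. It ran from 2.94 to 5.30 CPM with a median of 4.01 in wild-type, from 3.32 to 5.67 (median 4.03) in Isl1 +/-, from 3.41 to 5.74 (median 4.46) in Nipbl +/- and from 3.53 to 5.68 (median 4.44) in double heterozygous hearts. The 4 ranges overlapped almost completely. The fitted interaction was −0.04 on the log2 scale (SE 0.13), and the averaged Isl1 effect was −0.002 (95% interval −0.14 to 0.14). Without the library labelled Nipbl +/- replicate 2 these were 0.01 (SE 0.12) and 0.02 (SE 0.06). Rdh10 differed between sets (edgeR adjusted p 0.00248), with means from 3.64 CPM in set 1 to 5.25 CPM in set 6, and 5.68 CPM in the single library of set 7.

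Aldh1a2 (chromosome 9, 71215789 to 71296243, plus strand) encodes the retinal dehydrogenase of the heart. Its levels ran from 7.68 to 38.1 CPM (median 24.9) in wild-type, 17.4 to 44.5 (median 36.2) in Isl1 +/-, 18.4 to 38.8 (median 26.7) in Nipbl +/- and 19.4 to 41.4 (median 35.3) in double heterozygous hearts. Both groups with 1 working Isl1 allele had the higher medians, and all 4 groups overlapped. Among the 6 libraries of set 1 the mean was 17.7 CPM, against 35.6 in set 2, 29.5 in set 5 and 31.5 in set 6 (edgeR adjusted p for sets 4.02e-04). Against wild-type the fitted change in Isl1 +/- hearts was 0.57 on the log2 scale (SE 0.16, unadjusted p 8.61e-04, edgeR adjusted p 0.370), in a comparison where 0 of the 15046 genes passed (0%), with 886 genes at an unadjusted p under 0.05 and 11 called by DESeq2. Taken as a mean over the Nipbl genotypes, the Isl1 effect was 0.45 (SE 0.11, edgeR adjusted p 0.0894), where 26 genes (0.173%) passed and none was a member.

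Within sets, all 7 differences between matched Isl1 genotypes were above 0, from 0.11 to 0.79 on the log2 scale. Without the library labelled Nipbl +/- replicate 2 the averaged effect was 0.51 (SE 0.11) and passed the threshold with an edgeR adjusted p of 0.0276, among 56 genes (0.372%). DESeq2 on all libraries gave 0.44 and an adjusted p of 0.0269. Leaving out any other library left its adjusted p above 0.05. The Nipbl genotype was not accompanied by a detectable change in Aldh1a2, with −0.14 (SE 0.17, edgeR adjusted p 1.00) in double heterozygous against Isl1 +/- hearts and a 95% interval from −0.50 to 0.21.

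The epicardium, which is known to express Aldh1a2 from about this stage, was represented by 8 marker genes, none of them at 0 in any group. Their summed level was 390 to 591 CPM in wild-type, 400 to 633 in Isl1 +/-, 500 to 928 in Nipbl +/- (to 706 without replicate 2) and 664 to 1110 in double heterozygous hearts. In the averaged Isl1 effect 1 of the 8 was called higher, against 0.173% of all genes called, and 7 of 8 lay above 0. Against wild-type, double heterozygous hearts had 6 of 8 called higher (2.6% of all genes called). The count was 1 in Nipbl +/- against wild-type hearts (1.71%) and 3 in the averaged Nipbl effect (4.02%), with all 8 above 0 in these 3 comparisons. It was 1 in double heterozygous against Isl1 +/- hearts (0.957%), again with 8 of 8 above 0. Without the library labelled Nipbl +/- replicate 2 the shares over all genes rose as well: the averaged Isl1 effect again had 1 called (0.372% of all genes), double heterozygous against wild-type 7 (5.58%), Nipbl +/- against wild-type 1 (2.72%) with 7 of 8 above 0, the averaged Nipbl effect 4 (6.93%), and double heterozygous against Isl1 +/- hearts 3 (2.4%). Other cell types moved in the same comparisons. Of 7 ventricular cardiomyocyte markers, with sums of 11546 to 17741 CPM in wild-type, 10505 to 15151 in Isl1 +/-, 10671 to 14014 in Nipbl +/- and 9705 to 15695 in double heterozygous hearts, 3 were called lower in double heterozygous against wild-type hearts (Mycn, Irx4 and Hey2), 2 in Nipbl +/- against wild-type and 2 in the averaged Nipbl effect, with none of the 7 above 0. Each of these counts was 3 without the library labelled Nipbl +/- replicate 2. None of the ventricular markers was called in double heterozygous against Isl1 +/- hearts, where 3 of 7 lay above 0. In the averaged Isl1 effect none of the ventricular, erythroid and endocardial markers was called, with 0 of 7, 5 of 5 (median 1.08) and 6 of 6 (median 0.17) above 0. Of 4 tested neural markers, 1 was called lower in that effect. The neural count was also 1 lower in double heterozygous hearts, both against Isl1 +/- and against wild-type. These neural counts were the same without the library labelled Nipbl +/- replicate 2. Summed erythroid markers ran from 1840 to 105392 CPM in wild-type, 812 to 47287 in Isl1 +/-, 483 to 22976 in Nipbl +/- and 1287 to 53576 in double heterozygous hearts. The part of the epicardial and other markers in the levels of Aldh1a2 and Rarres1 was not tested. In whole hearts, fewer cells of a type and less RNA per cell cannot be told apart. Across the 36 libraries of sets 1, 2, 5 and 6, centred within sets, the genes most like Aldh1a2 were Lamc3 (Pearson's r 0.911), a laminin chain gene, and Bicc1 (0.903), an RNA-binding protein gene; they are named after their values were seen, and the libraries share set, depth and tissue.

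Dhrs3 (chromosome 4, 144892827 to 144928209, plus strand) encodes the enzyme that returns retinal to retinol. It ran from 2.67 to 6.47 CPM (median 3.12) in wild-type, 2.34 to 5.75 (median 3.37) in Isl1 +/-, 2.48 to 27.6 (median 3.82) in Nipbl +/- and 2.02 to 5.62 (median 2.92) in double heterozygous hearts. The medians lay close together and 1 library set the top of the range. Described with all libraries, Dhrs3 was 1.06 higher on the log2 scale in Nipbl +/- than in wild-type hearts (SE 0.34), and 0.35 (SE 0.15) without replicate 2. The value in double heterozygous against Isl1 +/- hearts was −0.11 (SE 0.36, edgeR adjusted p 1.00) with all libraries and −0.02 (SE 0.16) without that library.

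Cyp26a1 (chromosome 19, 37697798 to 37701536, plus strand) and Cyp26b1 (chromosome 6, 84571414 to 84593908, minus strand) encode enzymes that clear retinoic acid. Cyp26a1 was barely detected: 0 to 94 reads per library, with 0 reads in wild-type replicate 8, where 3 counts would give 0.0840 CPM. Its medians were 0.348 CPM in wild-type, 0.328 in Isl1 +/-, 0.280 in Nipbl +/- and 0.197 in double heterozygous hearts. Apart from 1 library at 2.57 CPM, every value lay at or under 0.713 CPM, and no genotype difference was detectable at this depth. The 95% interval of its change in double heterozygous against Isl1 +/- hearts ran from −1.34 to 1.23 on the log2 scale.

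Cyp26b1 ran from 5.76 to 10.9 CPM (median 9.22) in wild-type, 6.63 to 11.0 (median 8.79) in Isl1 +/-, 3.96 to 19.3 (median 7.28) in Nipbl +/- and 4.26 to 9.57 (median 7.77) in double heterozygous hearts. Both Nipbl +/- genotypes had the lower medians, while the highest value of all was that of the library labelled Nipbl +/- replicate 2. Cyp26b1 in double heterozygous against Isl1 +/- hearts was −0.44 on the log2 scale (SE 0.20, edgeR adjusted p 0.569), and −0.41 (SE 0.16, edgeR adjusted p 0.210) without that library, short of the threshold both times.

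Averaged over the Isl1 genotypes, the Nipbl effect on Cyp26b1 was −0.34 (SE 0.15, edgeR adjusted p 0.238), where 605 genes (4.02%) passed. Without the library labelled Nipbl +/- replicate 2 it was −0.43 (SE 0.11, edgeR adjusted p 0.0149) and passed, among 1043 genes (6.93%). This average includes the Nipbl +/- against wild-type contrast, which supports nothing here. In double heterozygous against Isl1 +/- hearts alone the within-set differences were −0.67 in set 2, −0.29 in set 5 and −0.57 in set 6. The mean level was 8.88 ± 1.63 CPM (SD, n = 19) over the libraries with 2 working Nipbl alleles and 7.28 ± 1.78 (SD, n = 17) over the remaining Nipbl +/- libraries, a difference smaller than the range in either group.

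Crabp2 (chromosome 3, 87948666 to 87953376, plus strand) encodes the protein that carries retinoic acid to its receptors. It spread widely in every group, at 2.90 to 11.5 CPM (median 6.25) in wild-type, 2.90 to 9.36 (median 5.07) in Isl1 +/-, 3.20 to 11.6 (median 6.01) in Nipbl +/- and 3.53 to 11.1 (median 4.79) in double heterozygous hearts. The groups overlapped over nearly their whole ranges, and the sets differed (edgeR adjusted p 0.0268), with 7.94 CPM on average in set 1 and 4.88 in set 5. The averaged Nipbl effect was 0.37 (SE 0.18, edgeR adjusted p 0.322), and 0.41 (SE 0.17, edgeR adjusted p 0.167) without the library labelled Nipbl +/- replicate 2, with the highest within-set differences in set 2. There double heterozygous hearts were 1.22 above Isl1 +/- hearts on the log2 scale and Nipbl +/- hearts 1.42 above wild-type, while in sets 5 and 6 the same differences ran from −0.11 to 0.12, or −0.10 to 0.13 without that library.

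With 1 working Isl1 allele Crabp2 was lower in all 7 within-set differences, from −0.51 to −0.05 (from −0.58 without that library), the opposite side from Aldh1a2. The averaged Isl1 effect of −0.30 (SE 0.16, edgeR adjusted p 0.454) missed the threshold, as did −0.36 (SE 0.16, edgeR adjusted p 0.252) without the library labelled Nipbl +/- replicate 2.

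Apart from 1 library, the receptors varied less between libraries than Crabp2. Rara (chromosome 11, 98927818 to 98974942, plus strand) ran from 34.0 to 50.6 CPM (median 45.6) in wild-type, 36.2 to 58.2 (median 42.9) in Isl1 +/-, 30.1 to 87.7 (median 48.0) in Nipbl +/- and 36.9 to 48.1 (median 45.4) in double heterozygous hearts. Its change in double heterozygous against Isl1 +/- hearts was 0.03 on the log2 scale (95% interval −0.21 to 0.26). Rara also differed between sets (edgeR adjusted p 0.0347), with 39.2 CPM in set 6 and 50.0 CPM in set 1.

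Rarb (chromosome 14, 16430839 to 16819156, minus strand), the receptor that is itself a classical target, ran from 14.8 to 20.4 CPM (median 16.9) in wild-type, 14.3 to 19.2 (median 17.6) in Isl1 +/-, 16.5 to 50.2 (median 19.5) in Nipbl +/- and 15.1 to 22.3 (median 19.2) in double heterozygous hearts. Both Nipbl +/- genotypes had the higher medians, and all ranges overlapped. Within sets, double heterozygous less Isl1 +/- hearts gave 0.02 in set 2, 0.11 in set 5 and 0.08 in set 6. The fitted value in double heterozygous against Isl1 +/- hearts was 0.06 (SE 0.14, 95% interval −0.23 to 0.35, edgeR adjusted p 1.00), and 0.08 (SE 0.06, edgeR adjusted p 0.753) without the library labelled Nipbl +/- replicate 2.

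Rarg (chromosome 15, 102234938 to 102257517, minus strand) ran from 7.43 to 14.4 CPM (median 9.75) in wild-type, 9.41 to 13.9 (median 10.4) in Isl1 +/-, 7.03 to 22.6 (median 11.2) in Nipbl +/- and 8.10 to 14.7 (median 11.1) in double heterozygous hearts. The groups overlapped throughout. Its change in double heterozygous against Isl1 +/- hearts was 0.01 on the log2 scale (95% interval −0.32 to 0.35).

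Rarres1 (chromosome 3, 67478972 to 67515523, minus strand) is named for its response to retinoid treatment in skin and encodes a membrane protein related to the carboxypeptidase inhibitor latexin. In wild-type hearts it ran from 0.890 to 2.13 CPM with a median of 1.47, and in Isl1 +/- hearts from 1.16 to 2.20 with a median of 1.64. In Nipbl +/- hearts it ran from 2.02 to 5.61 (median 3.89) and in double heterozygous hearts from 2.59 to 5.64 (median 3.71). These levels rest on 30 to 189 reads per library. Of the 18 libraries labelled with Nipbl loss, 17 lay above every one of the 19 others, whose highest value was 2.20 CPM. That count is a description, since it includes the libraries of the contrast taken to have chosen Rarres1. The share of all genes with such a count is not given here. The exception was the library labelled Nipbl +/- replicate 2, whose Nipbl level goes against its label and whose Rarres1 level of 2.02 CPM lay among the libraries with 2 working Nipbl alleles.

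As a description of the contrast taken to have chosen it, Rarres1 was 1.21 higher on the log2 scale in Nipbl +/- than in wild-type hearts (SE 0.17), one of 258 genes called there (1.71% of those tested), and 1.29 (SE 0.15) without replicate 2. In double heterozygous against Isl1 +/- hearts it rose by 1.10 (SE 0.18, edgeR adjusted p 4.28e-04), the only member among 144 genes called (0.957%). These hearts share no library with that contrast. The same fit to all libraries gave both values, however, with shared set terms and spread. Without replicate 2 the rise was 1.09 (SE 0.16). As a description, all 9 double heterozygous libraries were above every Isl1 +/- library. The share of all genes tested that separate these libraries in this way is not given here. In double heterozygous against wild-type hearts the value was 1.19 (SE 0.17), among 391 genes called (2.6%). It is a description, since the wild-type libraries are shared with the contrast taken to have chosen Rarres1.

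The difference between double heterozygous and Isl1 +/- hearts was above 0 in each set that held both. On the log2 scale it was 1.56 in set 2, 0.99 in set 5 and 0.42 in set 6, the last from 1 library of each genotype. Leaving out set 2 gave 0.94 with an edgeR adjusted p of 0.0723, and leaving out set 5 gave 1.11 with 0.0873, with fewer libraries in each fit. Leaving out any 1 library gave 1.04 to 1.20 and adjusted p-values up to 0.00237. In the same comparison all 8 epicardial markers, whose sums are given with Aldh1a2, lay above 0, with a median of 0.31 on the log2 scale. Of these Wt1 was called, at 0.54 (SE 0.08), and without the library labelled Nipbl +/- replicate 2 also Krt19, at 1.03 (SE 0.23), and Upk1b, at 0.39 (SE 0.10). Of 4 tested neural markers 1 was called lower in this comparison, against 0.957% of all genes called, with 2 above 0. None of 7 atrial, 3 tested foregut and 4 tested liver markers was called, with 6, 3 and 3 above 0 (medians 0.18, 0.71 and 0.78).

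The comparisons of Isl1 genotypes reuse the libraries of the Nipbl +/- against wild-type contrast, so their Rarres1 values are a description. The change in Isl1 +/- against wild-type hearts was 0.09 (SE 0.16, 95% interval −0.24 to 0.42), and that in double heterozygous against Nipbl +/- hearts was −0.02 (SE 0.16, interval −0.35 to 0.32). The interaction, the double heterozygous change less both single changes added up, was −0.11 (SE 0.23, interval −0.57 to 0.35). Without the library labelled Nipbl +/- replicate 2 these last 2 values were −0.13 (SE 0.15) and −0.20 (SE 0.20). With all libraries no gene was called in either comparison (0%), where 1355 and 411 genes had an unadjusted p under 0.05 and DESeq2 also called none.

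**Figure D2:**
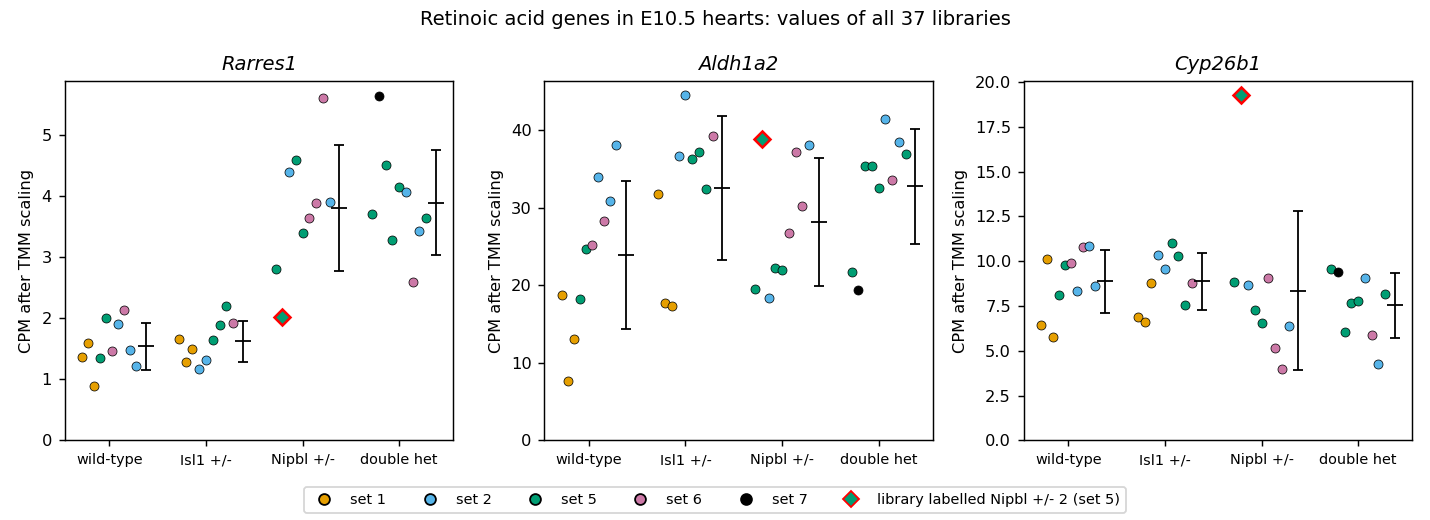
CPM of Rarres1, Aldh1a2 and Cyp26b1 (vertical axes, starting at 0) in each library by genotype, coloured by set number, with the mean and SD of each group as bars. Rarres1 separates the groups by Nipbl label except for the library drawn as a red-edged diamond at 2.02 CPM. This is a description that includes the contrast taken to have chosen Rarres1. Aldh1a2 is lowest in set 1, and Cyp26b1 has its highest value, 19.3 CPM, in the library drawn as that diamond.

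The genes whose pattern over 36 libraries, centred within sets, was most like that of Rarres1 among 12080 candidates were Pdpn (Pearson's r 0.807), a membrane glycoprotein gene, P3h4 (0.806), a gene of the collagen hydroxylase family, and Zfp979 (0.800), a zinc-finger gene. Set 7 has a single library and does not enter. All were called higher in double heterozygous against Isl1 +/- hearts, Zfp979 by 0.69 (SE 0.11), Pdpn by 0.36 (SE 0.07) and P3h4 by 0.27 on the log2 scale (SE 0.06). Among the members themselves the most negative likeness to Rarres1 was that of Cyp26b1 (r −0.52). These values are descriptions, since the libraries share genotype groups.

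One library stood out among the members. In the library labelled Nipbl +/- replicate 2, Dhrs3 was at 27.6 CPM, 4.26 times the next highest of the 37 libraries, and Cyp26a1 at 2.57 CPM, 3.60 times the next. Rarb at 50.2 CPM was 2.19 times the next highest library, Cyp26b1 at 19.3 CPM 1.75 times, Rara at 87.7 CPM 1.51 times and Rarg at 22.6 CPM 1.49 times. Of these 6 members, Rarb and Cyp26a1 had a direct repeat in a listed promoter, and those promoters were printed because of this high level. Dhrs3, Cyp26b1, Rara and Rarg had no such repeat in theirs. A link between repeat and level was not tested. Other members did not stand out in that library: Aldh1a2 ranked 4 and Rdh10 7 from the highest, Rarres1 ranked 20, and Crabp2 at 3.20 CPM ranked 33.

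The same library was the highest of all 37 for 30.0% of the genes tested, against 6 of 10 members, and the lowest for 27.7%. It exceeded the next highest library by more than 1.4 times in 15.7% of genes and 6 of 10 members. The cut of 1.4 lies just under the lowest ratio of these 6 members (1.49, Rarg), so all 6 pass it. By more than 2 times, the library exceeded the next highest in 6.91% of genes and 3 of 10 members. Among 44 further retinoic acid genes it was highest for 17 (38.6%) and lowest for 4 (9.09%). Its summed erythroid markers, at 483 CPM, were the lowest of all libraries (812 to 105392 elsewhere), as were its neural markers at 79.9 CPM (221 to 437 elsewhere) and its atrial, sinus venosus and endocardial markers. Its summed cushion mesenchyme markers were the highest at 1218 CPM, against 612 to 1108 elsewhere, of which Vcan made up 1068 CPM, while 3 of the 6 genes, Sox9, Msx1 and Prrx2, were the lowest of all libraries there. Its summed epicardial markers ranked 2 of 37, with Krt19 at 498 of 928 CPM, 3 of 8 genes the highest of all libraries and Tcf21 the lowest, at 23.4 CPM. The part of these differences in the member values was not tested.

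**Figure D3:**
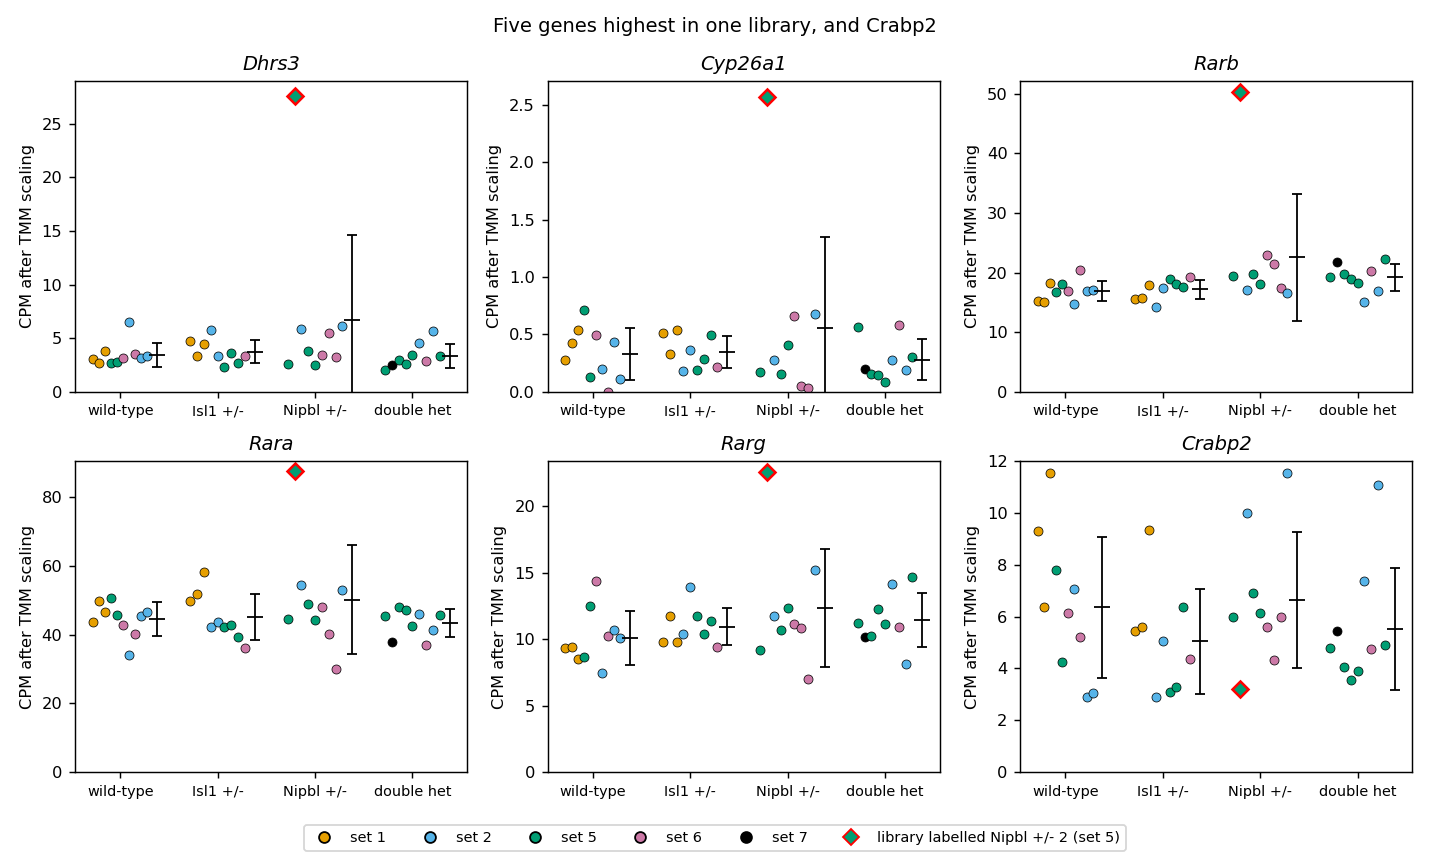
CPM (vertical axes, starting at 0) of Dhrs3, Cyp26a1, Rarb, Rara, Rarg and Crabp2 in each library by genotype, coloured by set number, with mean and SD bars (the lower ends of 2 bars fall below 0 and are not drawn). The red-edged diamond is the library labelled Nipbl +/- replicate 2. It is above all others in the first 5 panels, from 4.26 times the next highest library for Dhrs3 (27.6 CPM) to 1.49 times for Rarg. For Crabp2 it is near the bottom at 3.20 CPM.

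This library moved the summary of the members. In Nipbl +/- against wild-type hearts the median log2 change of the 10 members was 0.27 (0.01 over all genes tested) and became 0.11 without it. For the interaction the median was −0.21 and became −0.06. In double heterozygous against Isl1 +/- hearts, where the library belongs to neither group, the median was −0.003 with all libraries and 0.01 without it, beside all-gene medians of 0.003 and 0.01. Of the 10 members, 5 were above 0 there; of the 9 other than Rarres1, 4 were, with a median of −0.02 (−0.01 without the library).

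**Figure D4:**
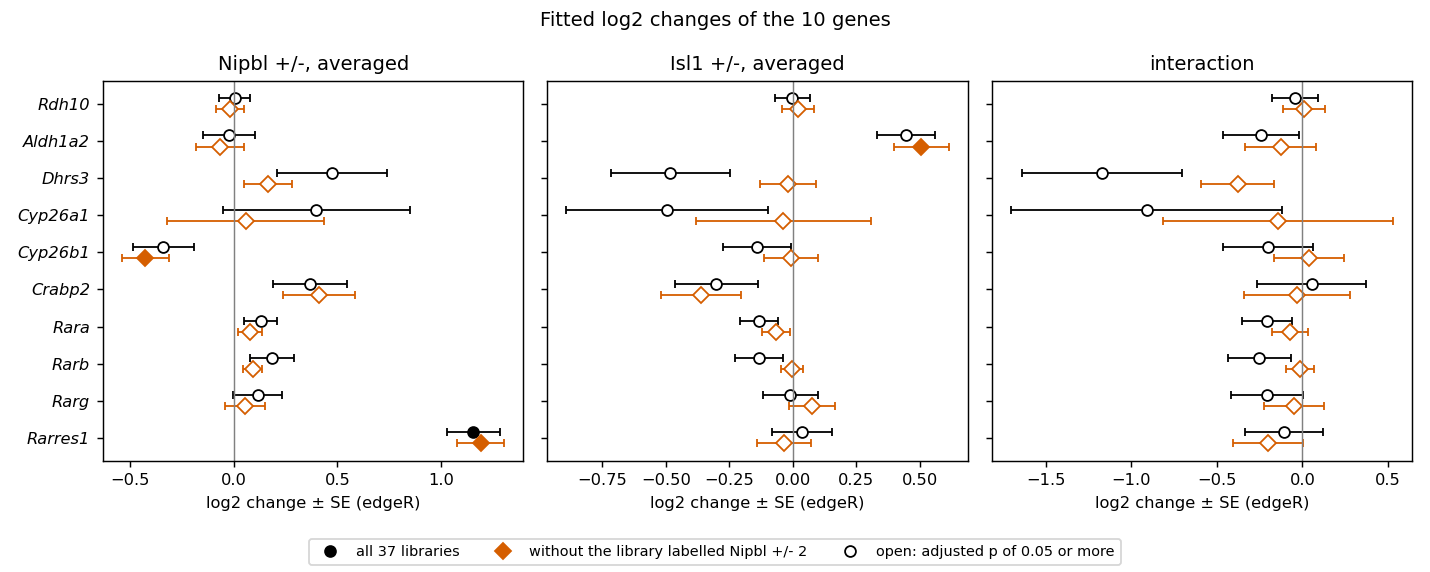
Fitted log2 change ± SE of each gene (rows) for the Nipbl effect and the Isl1 effect averaged over the other genotype and for the interaction, with all 37 libraries (black circles) and without the library labelled Nipbl +/- replicate 2 (orange diamonds), filled where the edgeR adjusted p was under 0.05. Rarres1 is filled both times at 1.16 and 1.19 in the first panel, an average that includes the contrast taken to have chosen it, Cyp26b1 there and Aldh1a2 in the second are filled only without that library, and the Dhrs3 values move toward 0.

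Of 54 other genes of the pathway, listed by role, 44 were tested. None of the 4 tested genes of vitamin A uptake and storage, 10 other retinol and retinal dehydrogenases, 3 of degradation and cellular binding, or 10 RXR partners and cofactors was called in any comparison with all libraries. Of 11 tested genes that retinoic acid is known to raise in embryos, 3 were called higher and 1 lower in Nipbl +/- against wild-type hearts, and of 6 progenitor genes it is known to restrain, 2 were called higher. Together these 6 are 13.6% of the 44, against 1.71% of all genes tested in that comparison. The lists were chosen with earlier results of these data known, and the 6 include Isl1, itself a targeted gene. These shares are therefore a description and support nothing. Markers moved there too: besides the ventricular and epicardial ones given with Aldh1a2, 1 of 5 sinus venosus markers (Isl1 itself) and 1 of 7 atrial markers (Sln) were called higher, 1 of 4 tested neural markers was called higher (Pax6) and 1 lower (Sox3), and 4 of 4 tested liver markers lay above 0 with none called (median 1.75). Of 5 erythroid markers there, 0 lay above 0 and none was called (median −0.88, or −0.73 without the library labelled Nipbl +/- replicate 2). The sinus venosus list shares Isl1 with the pathway lists, the atrial list Nr2f1, Nr2f2 and Tbx5, and the liver list Ttr. The part of these markers in the calls was not tested. Without the library labelled Nipbl +/- replicate 2, 6 of the 44 were called there as well, against 2.72% of all genes. With all libraries, 0 of the 44 were called in double heterozygous against Isl1 +/- hearts, where 0.957% of all genes were, and 1 (2.27%) was called in double heterozygous against wild-type hearts, where 2.6% of all genes were. Without that library these counts were 1 (Rdh12, a retinal reductase gene, at 1.01, SE 0.28), against 2.4% of all genes, and 4, against 5.58%. That the calls differ between the comparisons was tested only by the interaction, in which none passed.

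The genes called higher in Nipbl +/- hearts included Hoxa3, which helps to pattern the pharyngeal region. Hoxa3 was at 0.524 ± 0.371 CPM in wild-type (SD, n = 10), 0.897 ± 0.444 in Isl1 +/-, 1.89 ± 1.13 in Nipbl +/- and 1.19 ± 0.459 in double heterozygous hearts (SD, n = 9 each), a log2 change of 1.83 (SE 0.34, edgeR adjusted p 0.00249) in Nipbl +/- against wild-type, and 1.76 without the library labelled Nipbl +/- replicate 2. Rarres2, which encodes the secreted protein chemerin, rose by 0.87 in the same comparison (SE 0.21, edgeR adjusted p 0.0234), and by 0.72 without that library. Tgm2, a transglutaminase gene, fell by 0.25 (SE 0.06, edgeR adjusted p 0.0380), and by 0.23 without it. All 3 were called both ways.

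Of the restrained genes, Tbx1, a factor of the second heart field, rose by 1.38 in Nipbl +/- (SE 0.35, edgeR adjusted p 0.0322) and by 1.37 in double heterozygous hearts against wild-type (SE 0.37, edgeR adjusted p 0.0348). Isl1 itself rose by 0.79 in Nipbl +/- hearts (SE 0.19, edgeR adjusted p 0.0252), and by 0.81 (SE 0.20, edgeR adjusted p 0.0191) without the library labelled Nipbl +/- replicate 2. As a description of Nipbl +/- against wild-type hearts, the raised list had 3 genes called higher and 1 lower, and the restrained list 2 higher. Without that library 4 raised and 1 restrained genes were called higher. A part of retinoic acid in these calls was not tested. Without that library, Tbx1 was no longer called in Nipbl +/- against wild-type hearts, at 1.01 (SE 0.30, edgeR adjusted p 0.0606), and Nr2f2, an atrial transcription factor gene, was called there, at 0.61 (SE 0.14, edgeR adjusted p 0.0160).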

How the data were processed

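The authors deposited a single table of raw read counts per gene for 37 libraries; STAR, featureCounts and the GRCm38/mm10 build are named in the submitters' processing notes, without versions. The annotation, strand setting and filters are not given in the sources used here. RNA came from whole hearts, with NEB Monarch extraction and NEBNext Ultra II libraries, per the labels' protocols. Every column of values was mapped to a sample by the identifier in its description (0 other columns). Of 25239 genes, 4273 had 0 counts in every library.

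Counts were tested with edgeR 4.0.16 (limma 3.58.1, R 4.3.3): filterByExpr by genotype (minimum count 10, total 15), which kept 15046 genes, TMM scaling, a quasi-likelihood fit of genotype and set number over all libraries, and 2-sided tests with Benjamini-Hochberg adjustment over all genes tested (threshold 0.05, 95% intervals). The filter can pass a gene through the group where it is high. CPM are after TMM scaling. The 8 comparisons were 5 pairwise contrasts, the interaction and both averaged effects. No 2 libraries of a group agreed within sampling noise (153 pairs, smallest chi-square per degree of freedom 7.49). Depth of 23.4 to 51.0 M counts limits the lowest member, Cyp26a1, and its part in the other members was not tested. Intervals cover the spread between libraries. Set differences are differences of mean log2 CPM (prior count 2).

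All 10 members are named; other pathway genes are named where called (not all are reported here), and the 3 genes most like a called member by Pearson's r (mean log2 CPM of at least 1). The members and gene lists were chosen with earlier results of these data known. Promoters are from RefSeq (GRCm38.p6), gene positions and exon lengths from GENCODE (GRCm38). The 47 alternatives were other scalings, no filter, no set term, a replicate block, DESeq2 1.42.0, and leaving out each set or library. The fit was tested on simulated data.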

Additional observations from a re-analysis of the deposited data

Results flagged for a closer look

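In 40 groups of values (10 genes in 4 genotypes), 6 had a library whose gap to its neighbour was large for the group's range by Dixon's criterion, which chance meets in about 1 group in 20. Of these, 5 were the library labelled Nipbl +/- replicate 2, with Dhrs3 at 27.6 CPM (next Nipbl +/- library 6.16), Cyp26a1 at 2.57 (next 0.676), Cyp26b1 at 19.3 (next 9.04), Rara at 87.7 (next 54.6) and Rarb at 50.2 (next 22.9). The other was Dhrs3 in wild-type replicate 7, in set 2, at 6.47 CPM, with the next wild-type library at 3.83.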

How the results depend on the processing

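The 80 member results were recomputed under 47 alternatives. The averaged Nipbl effect on Rarres1 ran from 1.02 to 1.28 on the log2 scale; it includes the contrast taken to have chosen the gene and supports nothing. In double heterozygous against Isl1 +/- hearts Rarres1 ran from 0.94 to 1.29 and lost its call in 2 alternatives. These hearts share no library with that contrast, but each fit took in all 4 genotypes together. The number of members called in double heterozygous against Isl1 +/- hearts fell from 1 to 0 without set 2 and to 0 without set 5, where fewer libraries were fitted. The averaged Isl1 effect had 1 member called, Aldh1a2, with DESeq2. Leaving out 1 library gave 0 to 1 members for the averaged Isl1 effect and 1 to 2 for the averaged Nipbl effect, the additional calls being Aldh1a2 and Cyp26b1 without the library labelled Nipbl +/- replicate 2. With a replicate block in place of set number, 2 members were called in double heterozygous against wild-type hearts: Aldh1a2 (0.62, edgeR adjusted p 0.0498) joined Rarres1. The replicate numbers did not pair the libraries: over 54 same-numbered pairs the correlation of their deviations ran from −0.449 to 0.554 with a median of 0.028, 17 were over 0.1, and in 9 the best correlation was with the same number.

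Over all genes, calls ranged from 31 without set 2 to 467 with no set term for Nipbl +/- against wild-type, 67 (without set 5) to 839 (without the library labelled Nipbl +/- replicate 2) for double heterozygous against wild-type and 12 to 361, by the same settings, against Isl1 +/- hearts. The averaged Nipbl effect gave 152 (without set 2) to 1045 (no set term) and the averaged Isl1 effect 0 (no set term) to 115 (DESeq2). Where a value changed without a reason in the setting itself, the cause was not tested. Depth limits Cyp26a1, at 0 to 94 reads per library.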
